A study of Mus musculus with 6 samples.

Results

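The genes described here were a chosen set of short-chain, collagen VI, VII and XXVIII genes, and not every collagen outside the banded fibrils. They were taken by symbol from the deposited gene tables, and all 10 listed members were found among 53819 listed genes: *Col8a1*, *Col8a2* and *Col10a1* (short-chain collagens), *Col6a1*, *Col6a2*, *Col6a3*, *Col6a5* and *Col6a6* (collagen VI), *Col7a1* (collagen VII) and *Col28a1* (collagen XXVIII). The study asked how healing flexor digitorum longus (FDL) tendons differ once cells of the *Scx* lineage have been removed. RNA was sequenced from whole injured FDL tendons at D28 post-surgery, 1 tendon per library, with 3 libraries per genotype. The titles of the samples give D28 as time after depletion, while the extraction notes and the study count from surgery, which is used here. DTRScxLin mice were Scx-Cre+; DTR F/+, so that the diphtheria toxin receptor was switched on in every cell with a history of *Scx* expression, and WT mice were Scx-Cre-; DTR F/+, carrying the receptor allele without Cre. Both genotypes had the same surgery and 5 daily injections of diphtheria toxin (DT) about 2 weeks before harvest. The Cre was not inducible, so the pool targeted for depletion was the whole lineage and not 1 subset of it. The paper names as a limitation that the efficiency of depletion could not be quantified. The bulk tissue also holds cells that never expressed *Scx*.

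Collagen VI is made by most fibroblasts. Its α1, α2 and α3 chains join in one molecule, which assembles into beaded microfilaments around cells and between collagen I fibrils, and α5 and α6 can take the place of α3. Collagen VIII, from *Col8a1* and *Col8a2*, forms hexagonal lattices and is known from vessel walls, the corneal Descemet membrane and injured tissue, and its close relative collagen X, from *Col10a1*, marks hypertrophic cartilage. Collagen VII forms the anchoring fibrils that fix the epidermis to the dermis, and collagen XXVIII is a beaded-filament relative of collagen VI known from peripheral nerve.

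*Col8a1* was the member that stood apart in DTRScxLin tendons, at 2.35 times its WT level, while its partner chain *Col8a2* had equal means in both genotypes. The 3 main collagen VI chains had higher means in DTRScxLin tendons, by 1.26 to 1.34 times, but 1 of the 3 DTRScxLin libraries held most of that difference for *Col6a1* and *Col6a2*. The means of *Col6a5* and *Col7a1* were lower and those of *Col6a6* and *Col28a1* slightly higher, all with overlapping groups, and *Col10a1* was close to absent. In edgeR's quasi-likelihood test with Benjamini-Hochberg adjustment over 17496 genes, 0 of the 9 members tested passed an adjusted p of 0.05, as did 0% of all genes. At an unadjusted p under 0.05, 2 of the 9 were higher (*Col8a1* and *Col6a3*) and 0 lower, where 5.52% of all genes tested were higher and 5.45% lower. All DTRScxLin libraries lay above all WT libraries for 2 of the 9, again *Col8a1* and *Col6a3*, and below them for 0, where 8.96% of all genes tested lay above and 7.85% below. DESeq2 called 1 member, *Col8a1*, where it called 1.12% of all genes higher, and limma-voom called 0 members. The median log2 fold change of the 9 members tested was 0.12, against 0.01 over all genes tested.

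Libraries held 42744138 to 48854310 counts on genes, and values below are normalized counts, that is counts scaled by edgeR's TMM factors to the mean library size. *Xist* and *Ddx3y* reads placed WT replicate 2 and DTRScxLin replicates 2 and 3 as female and the other 3 libraries as male, so the sexes were unequally spread over the genotypes, and the sex of the mice was not given in the labels. A list of 30 skeletal muscle markers held 2.24% to 3.08% of the counts in WT, and 0.385%, 2.74% and 0.727% in DTRScxLin replicates 1 to 3, with all 30 detected in every library. A list of 15 keratinocyte markers held 0.463%, 0.314% and 0.00289% of WT replicates 1, 2 and 3 and 0.00146%, 0.00263% and 0.0445% of DTRScxLin replicates 1, 2 and 3, with 4 of its genes at 0 in WT replicate 3, 8 in DTRScxLin replicate 1 and 7 in DTRScxLin replicate 2. Tendon cell markers (*Scx*, *Tnmd*, *Mkx*, *Fmod*, *Thbs4* and *Kera*) were detected in all 6 libraries and held 1.18% to 1.46% of counts in WT and 1.55% to 1.67% in DTRScxLin tendons. Of these, *Scx* had 2656 ± 433 normalized counts in WT and 3472 ± 62.4 in DTRScxLin tendons (SD, n = 3 each). Its adjusted p was 0.371 in edgeR's quasi-likelihood test.

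**Figure D1:**
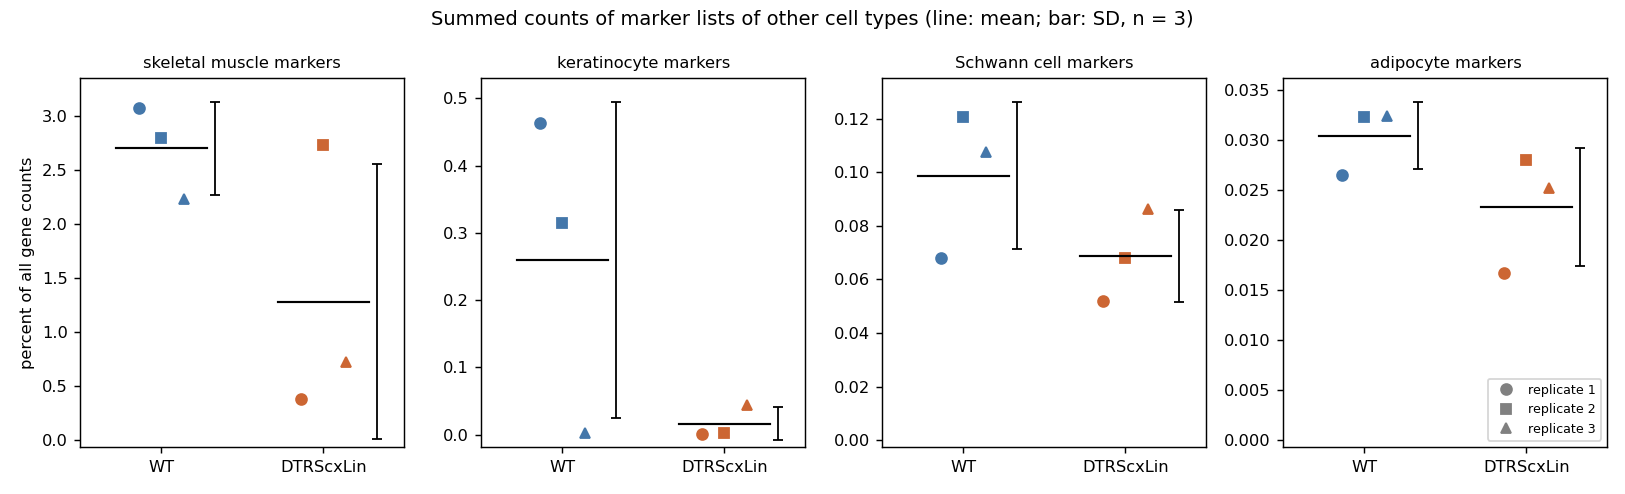
Percent of all gene counts held by 4 marker lists in each library, by genotype, with replicates as symbols, group means as lines and SD as bars. DTRScxLin replicate 2 lies among the WT libraries for skeletal muscle markers (2.74%), and the keratinocyte list is highest in WT replicates 1 and 2 (0.463% and 0.314%).

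*Col8a1* and *Col8a2* form 1 pair of partner chains, with a higher mean of *Col8a1* in DTRScxLin tendons and near equal means of *Col8a2*. *Col6a1* and *Col6a2* form another, with a ratio that overlapped between the genotypes. The upstream sequences of these 4 members, chosen after their values were seen, are shown. Each is the 250 bases before the annotated start of the gene in RefSeq (GRCm38.p6), written 5′ to 3′ on the gene's strand, and *Col6a2* has 2 listed starts, of which 1 is shown. Capitals mark E-boxes, the letters CANNTG, which are the kind of site that basic helix-loop-helix factors such as *Scx* bind.
Col8a1, chr16:57754738-57754987, minus strand: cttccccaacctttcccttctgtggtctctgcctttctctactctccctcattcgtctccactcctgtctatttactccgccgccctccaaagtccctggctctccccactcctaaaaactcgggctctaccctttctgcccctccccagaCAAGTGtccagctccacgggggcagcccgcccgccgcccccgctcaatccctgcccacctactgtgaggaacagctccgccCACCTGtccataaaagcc
Col8a2, chr4:126286544-126286793, plus strand: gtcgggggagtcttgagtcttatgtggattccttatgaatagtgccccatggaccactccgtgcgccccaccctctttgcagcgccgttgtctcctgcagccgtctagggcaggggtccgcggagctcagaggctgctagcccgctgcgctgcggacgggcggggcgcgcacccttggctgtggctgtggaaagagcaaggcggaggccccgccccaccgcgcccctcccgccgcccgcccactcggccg
Col6a1, chr10:76726045-76726294, minus strand: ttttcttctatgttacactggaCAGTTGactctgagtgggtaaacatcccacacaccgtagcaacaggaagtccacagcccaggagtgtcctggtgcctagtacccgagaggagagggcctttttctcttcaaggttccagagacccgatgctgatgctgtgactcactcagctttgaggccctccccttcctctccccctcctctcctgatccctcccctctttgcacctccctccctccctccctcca
Col6a2, chr10:76623405-76623654, minus strand: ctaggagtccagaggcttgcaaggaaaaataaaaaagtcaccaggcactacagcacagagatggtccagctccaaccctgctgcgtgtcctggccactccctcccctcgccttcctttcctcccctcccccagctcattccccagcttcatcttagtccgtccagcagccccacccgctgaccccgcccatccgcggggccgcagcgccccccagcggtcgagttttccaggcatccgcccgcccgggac
The *Col8a1* sequence held 2 E-boxes and 4 GC boxes (GGGCGG), that of *Col8a2* 0 and 4, that of *Col6a1* 1 and 0, and that of *Col6a2* 0 and 3. Both strands were searched, and matches could overlap. None of these 4 sequences held CCAAT or TATAAA. Over 32851 RefSeq promoters cut to the same length, 66.2% held an E-box, 32.7% a GC box, 33.8% CCAAT and 12.4% TATAAA, so neither an E-box nor its lack was unusual. These matches describe letters only, and binding was not measured.

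Levels can be compared between genes only per length, here as normalized counts per kb of exon (union exon lengths from GENCODE vM21). Among 44 collagen genes, *Col6a1* ranked 4th by this measure, after *Col1a1*, *Col3a1* and *Col1a2*, with *Col6a2* 6th and *Col6a3* 8th. *Col8a1* ranked 16th and *Col8a2* 20th, *Col28a1* 25th and *Col7a1* 27th, and *Col6a5*, *Col6a6* and *Col10a1* ranked 38th, 39th and 43rd. The WT levels ran from 24514 ± 1944 per kb for *Col6a1* to 2.12 ± 0.467 per kb for *Col10a1* (SD, n = 3).

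**Figure D2:**
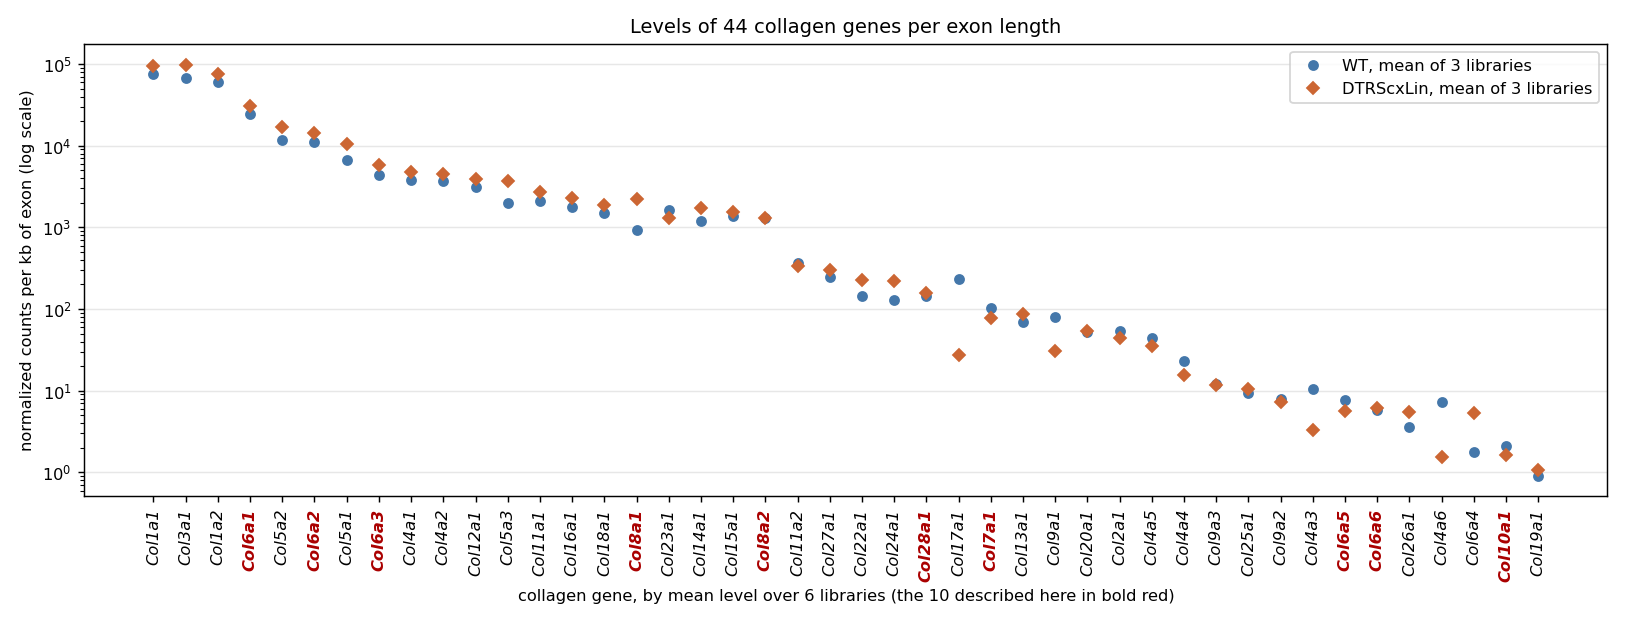
Mean normalized counts per kb of exon (log axis) of 44 collagen genes in WT (circles) and DTRScxLin (diamonds) tendons, ordered by the mean over 6 libraries, with the 10 genes described here in bold red. *Col6a1*, *Col6a2* and *Col6a3* sit among the 8 highest, and *Col8a1* has the widest gap between the genotypes of the 10, at 941 per kb in WT and 2212 per kb in DTRScxLin tendons.

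*Col8a1* encodes the α1 chain of collagen VIII. In WT tendons its normalized counts were 5364 (replicate 1), 8585 (replicate 2) and 8155 (replicate 3). In DTRScxLin tendons they were 16741, 17700 and 17549, in the same replicate order, which is kept below. The replicate numbers came from the labels and were not taken as pairs across genotypes. The groups did not overlap, and the lowest DTRScxLin library lay above the highest WT library. The means were 7368 ± 1749 in WT and 17330 ± 516 in DTRScxLin tendons (SD, n = 3 each), a log2 fold change of 1.23 (SE 0.18, 95% interval 0.82 to 1.64). This gave an adjusted p = 0.199 in edgeR's quasi-likelihood test, and an adjusted p = 1.12e-08 in DESeq2, with the same log2 fold change of 1.23 and an SE of 0.18. Without DTRScxLin replicate 2, the library with WT-like muscle content, the adjusted p from edgeR was 0.0317, in a fit that called 0.572% of all genes higher. The DTRScxLin libraries left in that fit held 0.385% and 0.727% of their counts on muscle markers, both below every WT library. With no filter on low counts the adjusted p from edgeR was 0.00341 (log2 fold change 1.24), in a fit that called 0.146% of all genes higher. Fits with a covariate for skeletal muscle markers (1.23), with one for keratinocyte markers (1.16) or with a term for sex (1.17) gave a log2 fold change close to that without them, at an adjusted p of 0.460, 0.492 and 0.221 in edgeR. Genotype and muscle content cannot be told apart by the muscle fit of 6 libraries. The part of muscle content in the *Col8a1* values was not tested. Over all 17 alternatives the adjusted p ran from 1.12e-08 to 0.701. Within the male libraries *Col8a1* was 2.48 times higher (2 WT, 1 DTRScxLin) and within the female libraries 2.05 times higher (1 WT, 2 DTRScxLin), with too few libraries for a test within either sex. In whole tendon, more cells that make *Col8a1* and more *Col8a1* RNA per cell cannot be told apart, which holds for each gene below.

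*Col8a2* encodes the α2 chain. Its normalized counts were 5493, 5730 and 6164 in the WT libraries and 6956, 4614 and 5839 in the DTRScxLin libraries. The highest and the lowest of the 6 values were both DTRScxLin libraries. The means were 5796 ± 340 in WT and 5803 ± 1172 in DTRScxLin tendons (SD, n = 3 each), and the log2 fold change of 0.0018 had a 95% interval from -0.34 to 0.34 (adjusted p = 0.997 in edgeR's quasi-likelihood test).

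The order of the 2 collagen VIII chains differed between the genotypes. Per kb of exon, *Col8a2* lay above *Col8a1* in every WT library (1224 against 685, 1276 against 1096 and 1373 against 1041 in replicates 1 to 3) and below it in every DTRScxLin library (1550 against 2137, 1028 against 2260 and 1301 against 2240). This order rests on the annotated exon lengths, 7.83 kb for *Col8a1* and 4.49 kb for *Col8a2*. The ratio of counts does not rest on lengths or on library scaling. On the log2 scale, the ratio of *Col8a1* to *Col8a2* was -0.03, 0.58 and 0.40 in WT and 1.27, 1.94 and 1.59 in DTRScxLin replicates 1 to 3. The group means differed by 1.28, which is 2.43-fold (SD 0.32 in WT and 0.34 in DTRScxLin tendons, n = 3 each). The groups did not overlap, and the exact two-sided permutation test gave p = 0.1, the smallest it can give with 3 against 3 libraries (0.5 adjusted over 5 shares and ratios tested). The difference was 1.08 within the male and 1.18 within the female libraries.

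**Figure D3:**
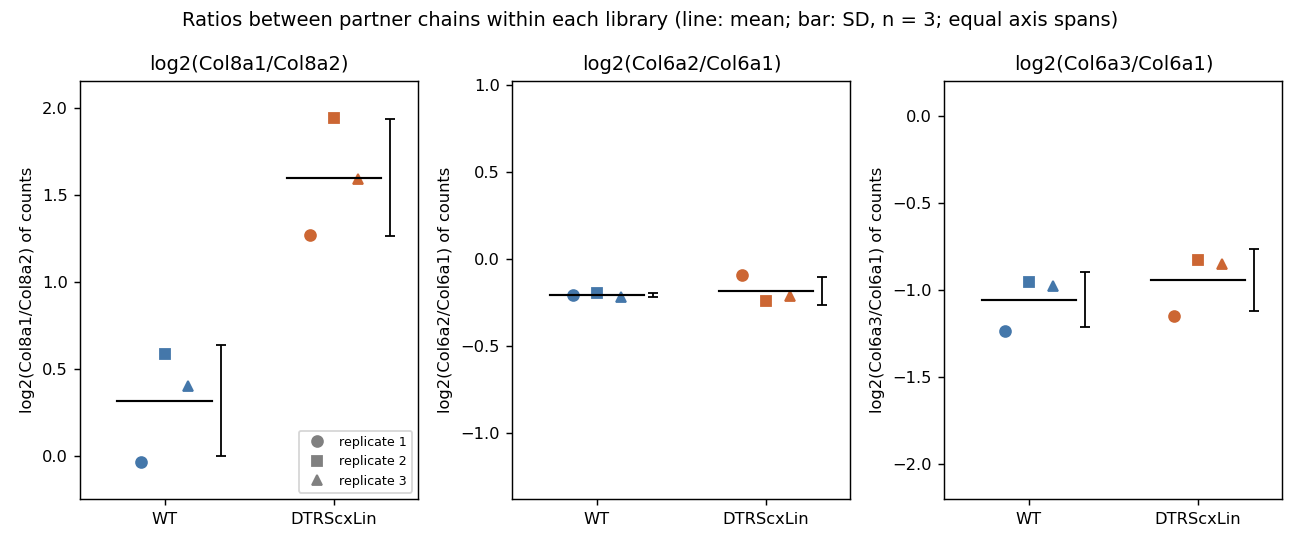
log2 ratios of counts between partner chains in each library, by genotype, with replicates as symbols, group means as lines and SD as bars; the vertical axes span equal ranges. *Col8a1* to *Col8a2* has no overlap between the genotypes (the means differ by 1.28), while the 2 collagen VI ratios overlap.

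Together the chains of collagen VIII held 0.447%, 0.581% and 0.523% of the counts on the 44 collagen genes in the WT libraries, and 0.563%, 0.840% and 0.714% in the DTRScxLin libraries. The lowest DTRScxLin value lay within the WT range. The difference of the means, 0.517% ± 0.067 against 0.705% ± 0.139 (SD, n = 3 each), had p = 0.2 in the exact two-sided permutation test (0.5 adjusted over 5). It was 0.121 percentage points without DTRScxLin replicate 2 and 0.260 without DTRScxLin replicate 1, against 0.189 with all libraries. As a share of all gene counts, collagen VIII held 0.0237%, 0.0320% and 0.0312% in the WT libraries and 0.0488%, 0.0477% and 0.0532% in the DTRScxLin libraries, without overlap (exact two-sided permutation p = 0.1, the smallest possible here).

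*Col10a1*, the third short-chain gene, had 8, 7 and 5 counts per WT library and 8, 3 and 4 per DTRScxLin library. It did not pass the filter on low counts and was not tested, and a difference was not detectable at this depth. Of 14 genes of cartilage and hypertrophic chondrocytes, 13 were tested, and none passed an adjusted p of 0.05 in edgeR (6 higher and 7 lower, median log2 fold change -0.14; 0 at an unadjusted p under 0.05 and 0 in DESeq2). *Runx2*, a transcription factor that drives chondrocyte hypertrophy, had 801 ± 191 normalized counts in WT and 1051 ± 197 in DTRScxLin tendons. *Sox9*, which drives the cartilage program, had 587 ± 76.1 and 487 ± 56.1, and *Mef2c*, active in both hypertrophic cartilage and muscle, had 15775 ± 1333 and 10498 ± 6160 (SD, n = 3 each). *Ihh*, the signal made by prehypertrophic chondrocytes, had at most 10 counts in any library. *Col10a1* and *Ihh* were thus near 0 in tendons where *Runx2* and *Sox9* were present.

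*Col6a1* encodes the α1 chain of collagen VI. The WT libraries held 97850, 110018 and 114251 normalized counts and the DTRScxLin libraries 173683, 106617 and 127171. DTRScxLin replicate 1 stood far above the other 5 libraries, and replicate 2 lay within the WT range. The means were 107373 ± 8514 and 135824 ± 34360 (SD, n = 3 each), a log2 fold change of 0.34 (SE 0.20, adjusted p = 0.544 in edgeR's quasi-likelihood test).

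*Col6a2*, the α2 chain, followed the same order of libraries. The WT libraries held 84780, 95931 and 97910 of its normalized counts and the DTRScxLin libraries 162552, 90089 and 109451. The log2 fold change was 0.38 (SE 0.23, adjusted p = 0.546 in the same test).

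*Col6a3* encodes the α3 chain, the longest of the 3, whose C-terminal fragment is released as endotrophin. Its values were 41557, 56921 and 58110 normalized counts in the WT libraries, and 78438, 60138 and 70630 in the DTRScxLin libraries. Here the groups did not overlap, although DTRScxLin replicate 2 lay only just above WT replicate 3. The means were 52196 ± 9233 and 69736 ± 9183 (SD, n = 3 each), a log2 fold change of 0.42 (95% interval 0.0057 to 0.83, adjusted p = 0.453 in edgeR's quasi-likelihood test, adjusted p = 0.182 in DESeq2).

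**Figure D4:**
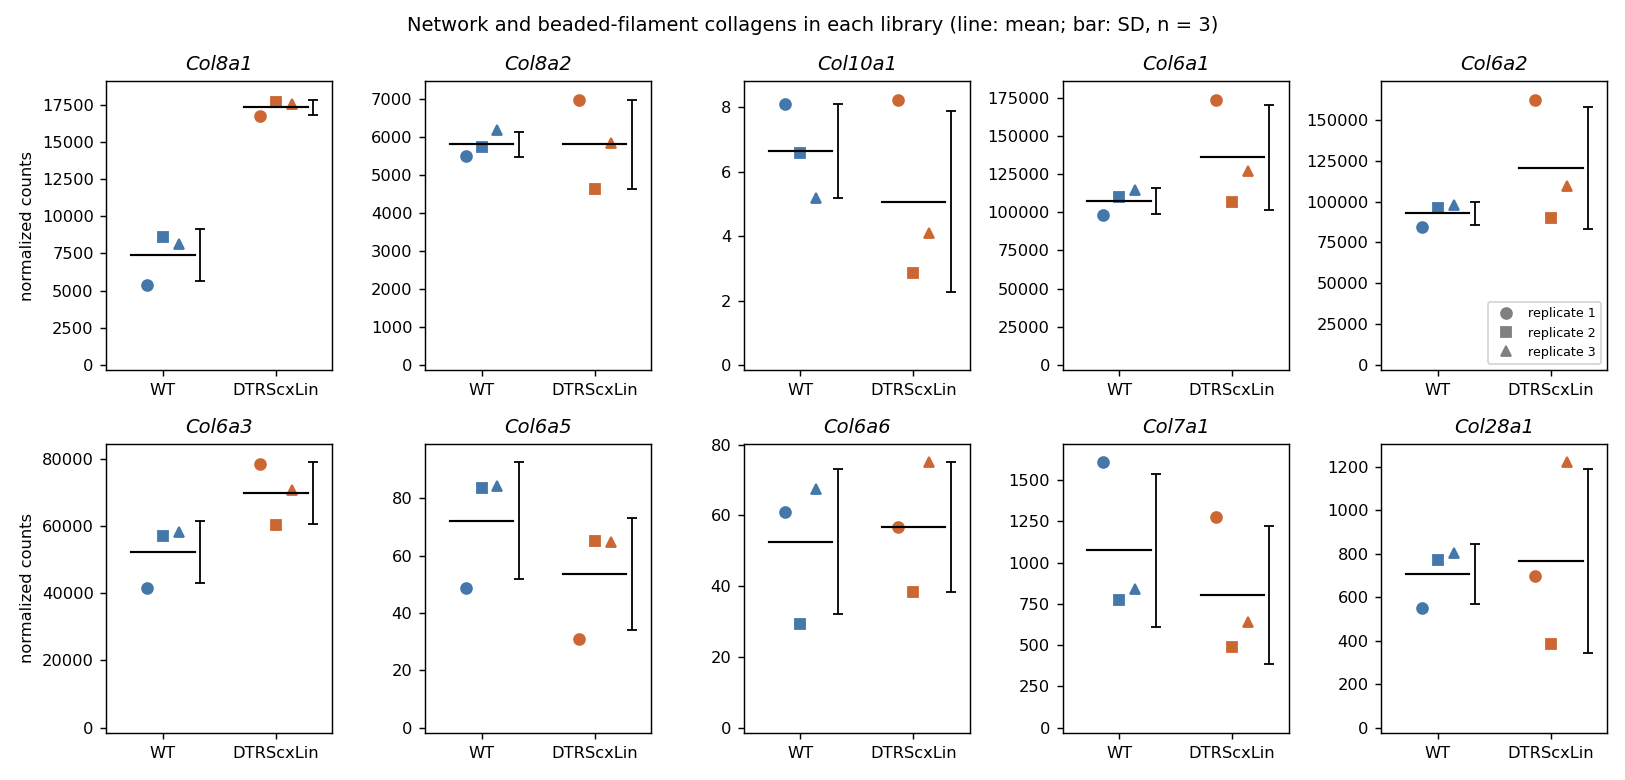
Normalized counts of the 10 genes in each library, 1 panel per gene with its own axis from 0, by genotype, with replicates as symbols, group means as lines and SD as bars. *Col8a1* and *Col6a3* have no overlap between the genotypes, and DTRScxLin replicate 1 is the highest library for *Col6a1* (173683) and *Col6a2* (162552).

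The values for the 3 chains moved with the libraries left in. Without DTRScxLin replicate 1 the log2 fold changes of *Col6a1*, *Col6a2* and *Col6a3* were 0.12, 0.10 and 0.32. Without DTRScxLin replicate 2 they were 0.49, 0.55 and 0.52, with adjusted p of 0.246, 0.225 and 0.215 in edgeR, and 4 of the 9 members tested (these 3 and *Col8a1*) lay above WT in both remaining libraries, as did 16.8% of all genes tested. With the skeletal muscle list as a covariate they were -0.03, -0.06 and 0.19, so *Col6a1* and *Col6a2* turned sign. The lowest adjusted p of any of the 3 chains over the 17 alternatives was 0.182. The 2 DTRScxLin libraries with the higher *Col6a1* were the 2 with low muscle content (0.385% and 0.727%), while all WT libraries held 2.24% or more. Genotype and muscle content thus cannot be told apart by that fit of 6 libraries. The part of muscle content in the collagen VI values was not tested. Within the male libraries the 3 chains were 1.64, 1.78 and 1.57 times higher, and within the female libraries 1.06, 1.04 and 1.15 times higher; the male comparison holds DTRScxLin replicate 1 alone.

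The ratios between the collagen VI chains overlapped between the genotypes. The log2 ratio of *Col6a2* to *Col6a1* was -0.21, -0.20 and -0.22 in WT and -0.10, -0.24 and -0.22 in DTRScxLin replicates 1 to 3, a difference of means of 0.02 (exact permutation p = 0.9, two-sided). That of *Col6a3* to *Col6a1* was -1.24, -0.95 and -0.98 in WT and -1.15, -0.83 and -0.85 in DTRScxLin replicates 1 to 3, a difference of 0.11 (exact permutation p = 0.5, two-sided), which was 0.02 without WT replicate 1 and 0.22 without DTRScxLin replicate 1. Replicate 1 was the lowest of its genotype in this ratio in both groups. Collagen VI held 9.24%, 10.7% and 9.87% of the counts on collagen genes in WT and 9.85%, 9.67% and 9.38% in DTRScxLin replicates 1 to 3 (9.93% ± 0.718 against 9.63% ± 0.233, SD, n = 3 each, exact two-sided permutation p = 0.6). Per kb, *Col6a1* lay above *Col6a2* and *Col6a2* above *Col6a3* in all 6 libraries.

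*Col6a5* and *Col6a6*, which encode the alternative α5 and α6 chains, were far below the main chains. *Col6a5* had 48.7, 83.8 and 84.2 normalized counts per WT library, and 30.9, 65.0 and 64.7 per DTRScxLin library. *Col6a6* had 60.9, 29.2 and 67.6 in WT and 56.7, 38.3 and 75.0 in DTRScxLin replicates 1 to 3. Replicate 1 was the lowest of each genotype for *Col6a5*, replicate 2 the lowest for *Col6a6*, and the genotypes overlapped for both (log2 fold changes -0.43 and 0.11, SE 0.38 and 0.41, adjusted p = 0.689 and 0.944 in edgeR's quasi-likelihood test). *Col6a4*, the remaining mouse chain, which is not among the 10 and is named here after its values were seen, had 11, 24 and 11 counts in WT and 80, 35 and 21 in DTRScxLin replicates 1 to 3, so the groups overlapped.

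A list of 16 genes for receptors, binding partners and processing of collagen VI, which also holds the chain *Col6a4*, was counted beside the members. Of 15 tested, 10 were higher and 5 lower (median log2 fold change 0.11), and 0 passed an adjusted p of 0.05 in edgeR or DESeq2. At an unadjusted p under 0.05 in edgeR 3 were higher and 2 lower, where 5.52% and 5.45% of all genes tested were. All DTRScxLin libraries lay above all WT libraries for 2 of the 15 and below them for 2, where 8.96% and 7.85% of all genes tested did. Without *Col6a4*, 9 of 14 were higher (median log2 fold change 0.07), and 2 were higher at an unadjusted p under 0.05. *Antxr2* (CMG2), the receptor through which cells take up collagen VI, had 5780 ± 311 normalized counts in WT and 6789 ± 514 in DTRScxLin tendons, without overlap (log2 fold change 0.23, adjusted p = 0.440 in edgeR). *Antxr1*, its relative, had 46548 ± 3755 and 46516 ± 16413 (SD, n = 3 each). *Cspg4*, the NG2 proteoglycan that binds collagen VI on pericytes, had 3859 ± 682 and 3438 ± 439, and *Itgb1*, the β1 integrin chain shared by the collagen-binding integrins, had 56388 ± 5845 and 68868 ± 9460. The genotypes overlapped for these last 3 genes.

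*Col7a1*, the single chain of collagen VII, had 1608, 771 and 842 normalized counts per WT library, and 1278, 489 and 640 per DTRScxLin library. Replicate 1 was the highest of each genotype, and the groups overlapped (1074 ± 464 against 802 ± 419, SD, n = 3 each; log2 fold change -0.42, SE 0.49, adjusted p = 0.777 in edgeR's quasi-likelihood test). Without WT replicate 1 the log2 fold change was -0.0072, and without DTRScxLin replicate 1 it was -0.93. WT replicate 1, with the highest keratinocyte share (0.463%), had the highest *Col7a1* of the 6 libraries. DTRScxLin replicate 1, with 8 of 15 keratinocyte markers at 0, had the second highest. With the keratinocyte covariate the log2 fold change of *Col7a1* was -0.33, and the part of keratinocyte content in its values was not tested. Of 8 partners of collagen VII at the dermal-epidermal junction, 7 were lower and 1 higher (median log2 fold change -0.27), with 0 past an adjusted p of 0.05 in edgeR or DESeq2. At an unadjusted p under 0.05 in edgeR 1 was lower, where 5.45% of all genes tested were. *Lama3*, a laminin α chain of the epidermal basement membrane, had 432 ± 67.4 normalized counts in WT and 339 ± 31.1 in DTRScxLin tendons, and *Lamb3*, a β chain, 132 ± 105 and 96.3 ± 61.8, with overlapping groups for both. *Itga6*, the α6 integrin chain of hemidesmosomes, had 5309 ± 160 and 5085 ± 320 (SD, n = 3 each).

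*Col28a1* had 549, 770 and 803 normalized counts per WT library, and 696, 386 and 1221 per DTRScxLin library. Both extremes were DTRScxLin libraries, and its coefficient of variation was 55.0% in DTRScxLin and 19.5% in WT tendons (log2 fold change 0.12, SE 0.43, adjusted p = 0.945 in edgeR's quasi-likelihood test). Without DTRScxLin replicate 3 its log2 fold change was -0.39. A list of 10 Schwann cell markers, the cells of peripheral nerve, held 0.0680%, 0.121% and 0.108% of counts in WT and 0.0519%, 0.0682% and 0.0862% in DTRScxLin replicates 1 to 3, with none at 0 in any library. In both genotypes the library with the highest *Col28a1* was replicate 3, and the highest Schwann share was in replicate 2 in WT and replicate 3 in DTRScxLin tendons. The part of nerve content in the *Col28a1* values was not tested.

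**Figure D5:**
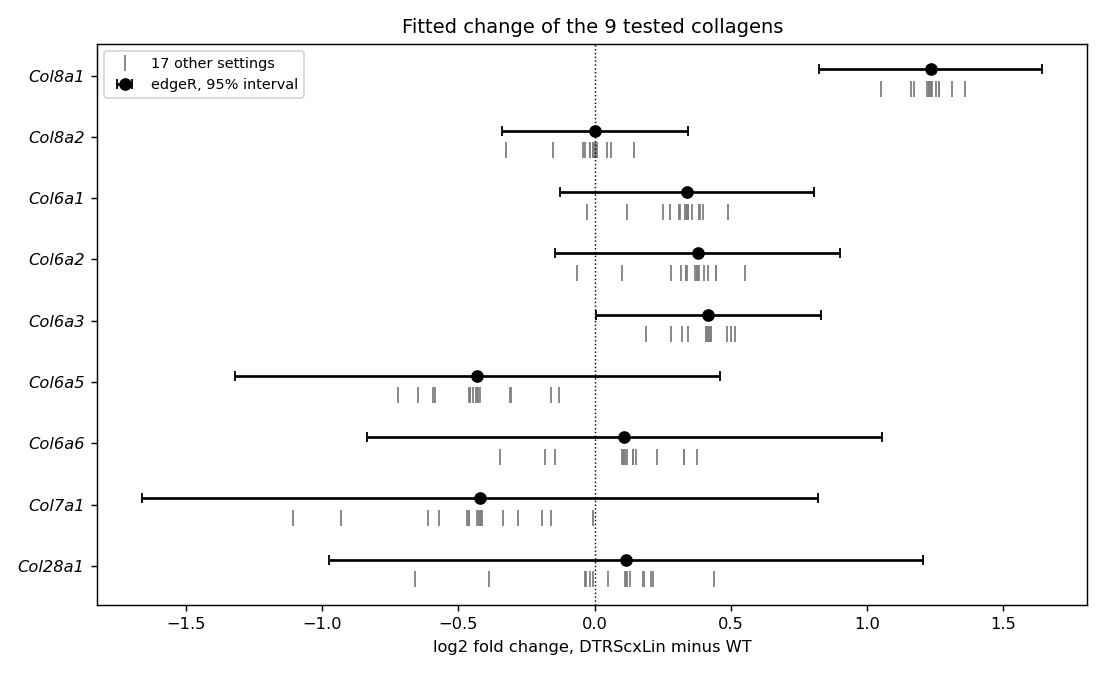
log2 fold changes (DTRScxLin minus WT) of the 9 tested genes, with points and bars for edgeR's value and its 95% interval, and grey ticks for the values under 17 other settings. The interval of *Col8a1* runs from 0.82 to 1.64 and its ticks from 1.05 to 1.36, while the ticks of *Col8a2*, *Col6a1*, *Col6a2*, *Col6a6* and *Col28a1* fall on both sides of 0.

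The other 34 collagen genes served as a comparison. Of 33 tested, 22 were higher and 11 lower, with a median log2 fold change of 0.31 (0.12 for the 9 described here), and 0 passed an adjusted p of 0.05 in edgeR. At an unadjusted p under 0.05 in edgeR 8 were higher and 4 lower, where 5.52% and 5.45% of all genes tested were. All DTRScxLin libraries lay above all WT libraries for 8 of the 33 and below them for 4. For the 9 described here these counts were 2 and 0, and over all genes tested the shares were 8.96% and 7.85%. DESeq2 called 3 higher (*Col5a1*, *Col5a3* and *Col24a1*) and 3 lower (*Col4a3*, *Col4a6* and *Col9a1*), named here after their values were seen. Their log2 fold changes in edgeR were 0.66, 0.87 and 0.76, and -1.66, -2.22 and -1.36, in that order. *Col1a1* and *Col1a2*, the chains of collagen I, had log2 fold changes of 0.32 and 0.32 and overlapping groups, and *Col3a1*, collagen III, had 0.54 without overlap (adjusted p = 0.618, 0.577 and 0.447 in edgeR's quasi-likelihood test). *Col2a1*, the cartilage collagen, had -0.28 with overlapping groups (adjusted p = 0.537 in the same test). The log2 fold change of *Col8a1* was thus larger than those of collagens I and III in the same libraries. Those of the main collagen VI chains lay between 0.34 and 0.42. Among the 33 they ran from -3.07 (*Col17a1*) to 1.59 (*Col6a4*, with at most 80 counts in a library), 2 genes named after their values were seen. These differences between genes were not tested.

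Genes with the pattern most like each member were found among 13245 genes that averaged 100 or more normalized counts, as the 3 with the smallest root mean square (RMS) difference in centred log2 CPM over the 6 libraries. For *Col8a1* the nearest was *Lrrc55* (RMS difference 0.188), and *Asphd2* (0.224) was also among its 3. For *Col6a2* they were *Fn1* (0.0334), *Col6a1* (0.0475) and *Plxdc1* (0.0532), and for *Col6a1* they were *Fjx1* (0.0436), *Col4a2* (0.0458) and *Col6a2* (0.0475). *Col6a1* and *Col6a2* were thus in each other's nearest 3. *Runx1t1*, *Cul7* and *Magee1* were nearest to *Col6a3* (0.0668 to 0.0738), and *Frmd6*, *Pdgfrb* and *Gm32219* to *Col8a2* (0.0348 to 0.0411). *Col7a1* was nearest to *Eva1a*, *Arl4c* and *Kcnh2* (0.142 to 0.152), and *Col28a1* to *Kcna6*, *Ak5* and *Adam11* (0.176 to 0.213).

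Markers of the remaining cell types in the tendon showed which other contents differed between the libraries. All 10 adipocyte markers had negative log2 fold changes in DTRScxLin tendons, from -3.79 (*Lep*) to -0.0044 (*Lpl*, near equal in both genotypes). At an unadjusted p under 0.05 in edgeR 7 of them were lower, where 5.45% of all genes tested were. All DTRScxLin libraries lay below all WT libraries for 7, where 7.85% of all genes tested lay below. The summed share of these markers was 0.0265% to 0.0324% in WT and 0.0167% to 0.0280% in DTRScxLin tendons. Of the 30 skeletal muscle markers 29 were lower, of the 15 keratinocyte markers 15, of the 10 Schwann cell markers 7, of the 10 endothelial markers 9, of the 10 smooth muscle and pericyte markers 10 and of the 10 macrophage markers 5, and 5 of the 6 tendon cell markers were higher. None of these genes passed an adjusted p of 0.05 in edgeR, while DESeq2 called 4 adipocyte, 3 Schwann cell, 1 smooth muscle and 1 macrophage marker lower and 1 tendon cell marker higher. Over all 17496 genes tested, DESeq2 called 265 lower and 196 higher. At an unadjusted p under 0.05, 3 tendon cell markers were higher, 3 Schwann cell markers were lower and 1 higher, 2 macrophage markers and 1 smooth muscle marker were lower, and 0 muscle, keratinocyte or endothelial markers passed. The endothelial list held 0.0691% to 0.0887% of counts in WT and 0.0689% to 0.0800% in DTRScxLin tendons, the smooth muscle and pericyte list 0.232% to 0.315% and 0.188% to 0.215%, and the macrophage list 0.141% to 0.162% and 0.139% to 0.160%. Endothelial and smooth muscle cells are known sources of collagen VIII, and the part of these contents in the *Col8a1* values was not tested.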

How the data were processed

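RNA was sequenced from FDL tendons of 3 DTRScxLin and 3 WT mice, 1 tendon and 200 ng total RNA per library. The authors cleaned the reads with FastP, counted them on genes by featureCounts and deposited raw counts, together with a signal table of normalized counts, each column of which equals the counts divided by 1 constant per library, the DESeq2 median-of-ratios size factor (0.973 to 1.06; the submitters' processing notes name DESeq2 1.22.1). The labels name 2 library kits, TruSeq Stranded mRNA and SMARTER mRNA-Seq. Aligner, genome build, annotation and strand setting of the counting were not given in the sources used here, so reads from overlapping or antisense genes cannot be told apart. Groups and replicate numbers came from the labels.

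The counts were analysed in R 4.3.3. Genes passing filterByExpr (17496 of 53819) were fitted with edgeR 4.0.16 (TMM, robust quasi-likelihood, genotype as the single term) with Benjamini-Hochberg adjustment and a threshold of 0.05. SE is the absolute log2 fold change over the square root of F. Shares and chain ratios were compared by exact two-sided permutation over the 6 libraries. Alternatives were DESeq2 1.42.0, limma-voom and limma on log2(deposited value + 1) (limma 3.58.1), other scalings and filters, a replicate block, covariates for muscle and keratinocyte markers and leaving out each library. A term for sex was added after seeing the data. The tests were tested on simulated data.

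The members and lists were chosen with earlier results of these data known. Named genes were all 10 members, the first 4 of each list of related genes, any list gene past an adjusted p of 0.05 (none), and the 3 nearest genes of each member with at least 100 normalized counts, of which 2 genes are not reported here. Replicate libraries differed by 36.6 to 189.8 in chi-square over its degrees of freedom, where sampling noise alone gives values near 1, so all 6 were kept as separate replicates, and n = 3 limits the precision, as does depth for *Col10a1*, with under 10 counts per library. Each library came from 1 tendon. The p-values set the difference between groups against the spread between these libraries. In edgeR, DESeq2 and limma that spread is estimated with information shared across genes.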

Additional observations from a re-analysis of the deposited data

How the results depend on the processing

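In edgeR, 0 genes and 0 members passed an adjusted p of 0.05. DESeq2 called 466 genes, the fit with no filter 83 and the replicate block 1, with 1 member (*Col8a1*) in DESeq2 and without the filter. With 1 library left out the counts ran from 0 to 544 genes and 0 to 1 members, both highest without DTRScxLin replicate 2. *Col8a1* (1.05 to 1.36), *Col6a3* (0.19 to 0.52), *Col6a5* (-0.72 to -0.13) and *Col7a1* (-1.11 to -0.0072) kept their sign in all 17 alternatives. The edgeR and DESeq2 values of *Col8a1* and its SE were alike, and the edgeR test used 7.61 degrees of freedom where DESeq2's used the normal distribution. The cause of the other changes was not tested. The members' median log2 fold change of 0.12 was -0.13 with the muscle covariate and 0.37 with the sex term, and ran from -0.0010 to 0.44 with 1 library left out. With the muscle covariate, *Col6a1* (-0.027), *Col6a2* (-0.064), *Col6a6* (-0.35), *Col28a1* (-0.66) and *Col8a2* (-0.32) turned negative. *Col8a2*, at 0.0018, was also -0.016 in limma-voom, -0.00091 with RLE scaling, -0.0063 with at least 10 counts in every library, -0.018 on the deposited normalized counts and -0.044 with the keratinocyte covariate, and ran from -0.15 to 0.14 with 1 library left out. *Col28a1* was -0.033 in limma-voom and -0.019 on the deposited normalized counts, and ran from -0.39 to 0.44 with 1 library left out; *Col6a6* ran from -0.18 to 0.33. Members without overlap were 2, where 8.96% of all genes tested lay above WT and 7.85% below. With 1 library left out they were 2 to 4. The 4 came without DTRScxLin replicate 2, where 16.8% of all genes tested lay above. That share was not counted for the other libraries left out, so the rise cannot be read as a result about the members. The difference in the collagen VI share was -0.29 percentage points of collagen counts, from -0.64 to 0.078 with 1 library left out, and 0.146 points of all counts. The difference in the *Col6a2* to *Col6a1* ratio of 0.02 ran from -0.021 to 0.053, and that in the *Col6a3* to *Col6a1* ratio of 0.11 from 0.023 to 0.217.

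Libraries with the same replicate number did not deviate together (correlations of -0.19, -0.15 and -0.68 over genes), so the numbers were not taken as pairs. With the replicate block *Col8a1* was 1.26 (adjusted p = 0.134 in edgeR), *Col8a2* -0.017 and *Col28a1* -0.0074. Paired differences could not pass 0.05 in the exact sign-flip test, whose smallest p is 0.25.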
